A study of Saccharomyces cerevisiae with 15 samples.

Results

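Pol I occupancy along the 35S gene was compared between yeast lysates incubated with MnCl2 and yeast lysates incubated with CaCl2, using the 3 MnCl2 and the 3 CaCl2 libraries among the 15 of the series and all 6858 positions of the gene. Occupancy was measured by NET-seq (native elongating transcript sequencing), in which the polymerase is immunoprecipitated and the 3′ ends of the RNA that comes with it are sequenced, so that a read marks the last nucleotide incorporated. All groups came from wild-type budding yeast, *Saccharomyces cerevisiae*, grown at 30 °C, and in the study's strain RPA135, a subunit of RNA polymerase I (Pol I), carries the HA tag used for the immunoprecipitation. In the MnCl2 group, lysates received 10 mM MnCl2 for 20 minutes on ice, then 5 mM EDTA, which binds divalent cations, and another 30 minutes on ice. In the CaCl2 group, lysates received 5 mM CaCl2 for 2 minutes at 37 °C, then 5 mM EDTA. The cation, its concentration and its incubation changed together, so they cannot be told apart. The 3 untreated libraries, which had neither a cation nor an incubation, are given beside the results without a test. The 3 CaCl2 + MNase libraries (100 U/µL MNase) and the 3 MnCl2 + DNase I libraries (100 U/mL DNase I) served for a second set of values. The labels number the replicates and do not say whether they came from separate cultures, so p-values measure the spread between these libraries, which may be technical.

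Pol I makes a single long transcript, the 35S precursor, from which the 18S, 5.8S and 25S ribosomal RNAs (rRNAs) are cut. The external spacers ETS1 and ETS2 and the internal spacers ITS1 and ITS2 are removed and degraded, so that spacer RNA is short-lived, whereas mature rRNA makes up most of the RNA of a yeast cell. Reads in the 3 rRNA genes can therefore come from mature rRNA as well as from nascent RNA, and the part of mature rRNA in the values below was not tested. RNA polymerases hold magnesium ions in the active site when they add or remove nucleotides, and manganese can take the place of magnesium in many of them. MNase needs calcium, and DNase I works with manganese.

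The gene is RDN37-2 on the minus strand of chromosome XII, 460712 to 467569 in the R64 assembly, and positions are counted from 1 at its 5′ end. From its 5′ end it holds ETS1 (positions 1 to 700), 18S (up to 2500), ITS1 (up to 2861), 5.8S (up to 3019), ITS2 (up to 3251), 25S (up to 6647) and ETS2 (up to 6858). RDN37-1 and RDN37-2 differ at 0 positions in R64, so occupancy is a sum over the repeats. The following stretches of R64, written 5′ to 3′ on the transcribed sense strand with T for U, hold the positions on which the comparison turns. In the first, the capital is the position in 25S with the largest rise with MnCl2 over the whole gene.
25S, position 6411, chrXII:461144-461174: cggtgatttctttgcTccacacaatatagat
In the next 3, each spanning the 3′ end of a mature rRNA, the capitals are the first nucleotides of the spacer that follows, shown because differences there depended on the end.
18S and ITS1, chrXII:465055-465084: gcggaaggatcattaAAGAAATTTAATAAT
5.8S and ITS2, chrXII:464536-464565: gtttgagcgtcatttCCTTCTCAAACATTC
25S and ETS2, chrXII:460908-460937: tgttgtctgatttgtTTTTTATTTCTTTCT
In the next 3, the capitals are the ETS1 positions with the largest falls of the gene.
position 336, chrXII:467219-467249: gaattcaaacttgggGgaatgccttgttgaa
position 165, chrXII:467390-467420: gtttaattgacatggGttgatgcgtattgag
position 232, chrXII:467323-467353: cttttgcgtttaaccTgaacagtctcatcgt
The capitals of the next stretch are the 2 spacer positions away from a mature end that rose, both in ITS1.
ITS1 positions 2709 and 2710, chrXII:464845-464876: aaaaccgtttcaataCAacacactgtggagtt
The last stretch starts before the terminator T1, and its capitals are the binding site that the deposited annotation gives to Reb1 and Nsi1, proteins that act in Pol I termination.
T1 to the Reb1/Nsi1 site, chrXII:460798-460836: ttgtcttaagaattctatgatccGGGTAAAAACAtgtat

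The deposited values are CPM, that is, the reads at a position per 1000000 reads of the library on the 35S gene up to T1, so a rise somewhere lowers the values elsewhere. Depth on the gene was 2867730, 5321422 and 12747077 reads in CaCl2 replicates 1, 2 and 3 and 2835831, 4134995 and 4727688 reads in MnCl2 replicates 1, 2 and 3, and 1 read was worth 0.0785 to 0.353 CPM. The spacers held 106350 to 715110 reads in a CaCl2 library and 44857 to 66782 reads in a MnCl2 library. The depth of CaCl2 replicate 3 is less certain, because few of its values lay near 1 read. CaCl2 replicate 3 also stood apart from the other CaCl2 libraries in its spacer share, and region values are therefore given with and without it. At 9 positions, 3 around each mature 3′ end, all 15 libraries were at 0, and these positions hold no information.

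Differences between the MnCl2 and CaCl2 groups were called in every region of the gene, but in the rRNA genes at a minority of positions (32.5% of those tested). Of 6836 positions above 0 in at least 3 of the 6 libraries, 2882 (42.2%) were called by limma at a Benjamini-Hochberg adjusted p-value under 0.05. Of these, 652 (9.54% of the positions tested) were higher with MnCl2 and 2230 (32.6%) were lower. At 58.6% of positions all libraries of a group lay on the same side of the other group. Counts of calls depended on single libraries, from 1846 without MnCl2 replicate 3 to 3400 without CaCl2 replicate 2. In 69 windows of 100 positions, 32 (46.4%) were called, 11 (15.9%) higher and 21 (30.4%) lower with MnCl2. Among the 52 windows wholly within the rRNA genes, 8 were called higher and 9 lower. The direction split depended on the scaling. Median-ratio scaling raised the median log2 difference over all positions from -0.27 to -0.03 and TMM scaling raised it to 0.04, and the share of calls that were higher went from 22.6% to 45.7% and 52.2%. This shift is of the size of many differences within the rRNA genes and far below those in the spacers.

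**Figure D1:**
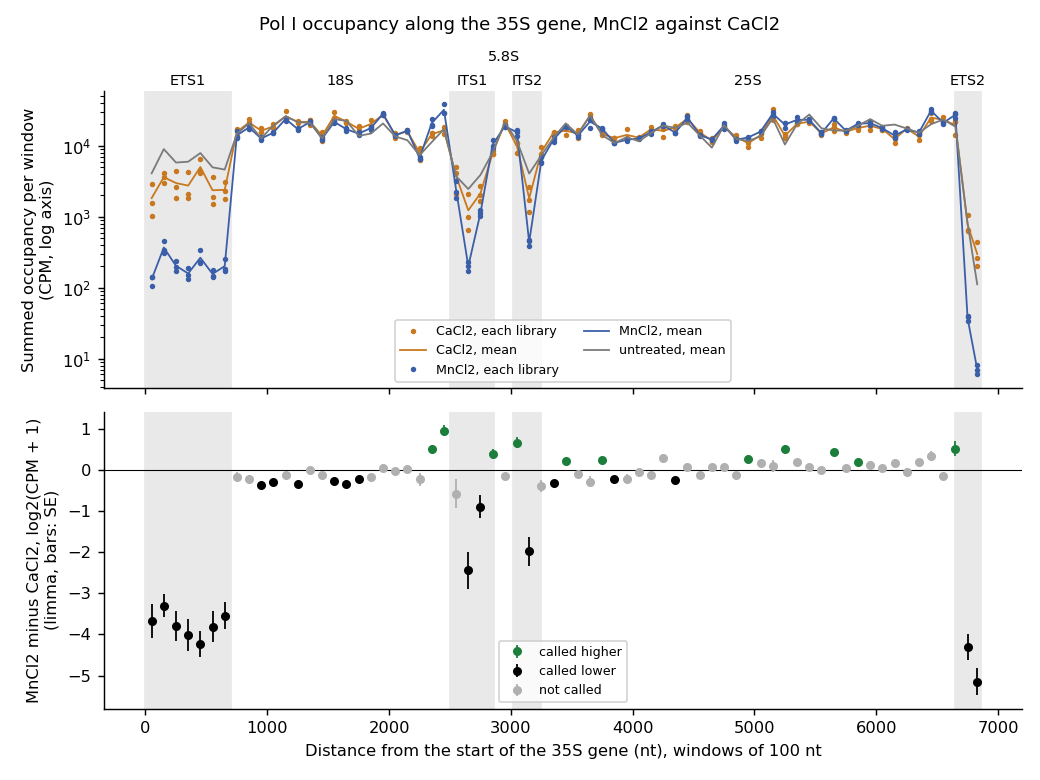
Upper panel, summed occupancy (CPM, log axis) in consecutive windows of 100 nt against distance from the start of the 35S gene, with a point for each library and lines for group means. Lower panel, the limma log2 difference of each window with its standard error. Grey bands are spacers. The 7 ETS1 windows lie between -4.24 and -3.30, and the windows within 18S and 25S lie between -0.37 and 0.96. The last window is shorter than the others.

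ETS1, the 5′ external spacer that is bound by the first assembly factors of the small ribosomal subunit and removed early, lost most of its occupancy. ETS1 held 1.72%, 1.66% and 2.91% of the 35S occupancy in CaCl2 replicates 1, 2 and 3 and 0.136%, 0.129% and 0.181% in MnCl2 replicates 1, 2 and 3. Every MnCl2 library lay below every CaCl2 library, and every CaCl2 library below the 3 untreated ones (4.23% ± 0.212, SD, n = 3). The group means were 2.09% ± 0.703 and 0.148% ± 0.0281 (SD, n = 3), a 14.1-fold difference. On the log2 scale the difference of the share was -3.78 with a pooled SD of 0.37, and -3.52 without CaCl2 replicate 3. Its two-sided exact permutation p was 0.1, the smallest that 3 against 3 libraries allow, and 0.114 after adjustment over 8 region shares.

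The loss ran through the whole of ETS1. All 7 of its windows fell, from a log2 difference of -3.30 at positions 101 to 200 to -4.24 at positions 401 to 500 (limma with Benjamini-Hochberg adjustment). In the latter window summed occupancy was 4152, 4397 and 6514 CPM with CaCl2 and 222, 228 and 344 CPM with MnCl2. Of 694 ETS1 positions tested, 608 fell and 0 rose (87.6%, against 42.2% of all positions in either direction), with a median log2 difference of -2.56 against -0.27 over all positions. The remaining occupancy was spread over the 7 windows in much the same way. The window of positions 101 to 200 held 24.8% ± 1.82 of ETS1 occupancy with MnCl2 and 17.9% ± 3.79 with CaCl2 (SD, n = 3), and positions 401 to 500 held 17.7% ± 1.34 and 24.4% ± 2.06. These were the 2 windows whose shares did not overlap between the groups.

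Position 336 had the largest fall of the gene. Its occupancy was 395, 383 and 285 CPM with CaCl2 and 3.17, 4.35 and 4.65 CPM with MnCl2, against 749 CPM as the mean of the untreated libraries. The log2 difference was -6.13 with a standard error of 0.22 (limma adjusted p = 1.46e-06). Log2 differences of single positions were taken after adding 1 CPM to each value, which makes those of low positions too small. Position 165 followed, with 259, 330 and 427 CPM against 2.47, 3.87 and 6.56 CPM (log2 -6.05). Both have G as the last incorporated base and lie after a pair or run of G in the stretches printed above. Position 232 was the most occupied ETS1 position of untreated libraries (mean 992 CPM), and had 465, 203 and 184 CPM with CaCl2 and 5.64, 1.45 and 5.71 CPM with MnCl2 (log2 -5.76). Position 80 fell by 5.66 on the log2 scale, but CaCl2 replicate 3, with 1079 CPM, stood well above replicates 1 and 2 (211 and 321 CPM). Position 437, the most occupied in CaCl2 libraries, had 562, 697 and 691 CPM there and 12, 12.3 and 25 CPM with MnCl2 (log2 -5.29). The most occupied ETS1 position with MnCl2 was position 107, with 19.0, 22.5 and 50.6 CPM in MnCl2 libraries and 53.7, 98.7 and 109 CPM in CaCl2 libraries, a log2 difference of -1.54 (limma adjusted p = 0.0111) that did not pass the test without MnCl2 replicate 1 (log2 -1.28, limma adjusted p = 0.0610). Positions 232 and 437 and position 107 were chosen for this account after their values were seen.

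**Figure D2:**
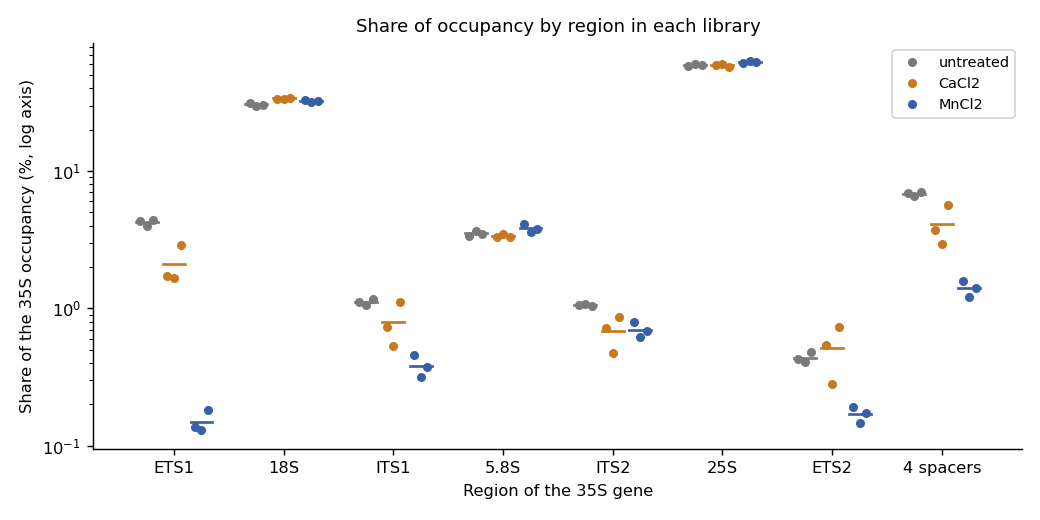
Share of the 35S occupancy (%, log axis) in each region for the 3 untreated, 3 CaCl2 and 3 MnCl2 libraries. A point is a library and a bar the group mean. The ETS1 share of the MnCl2 libraries lies between 0.129% and 0.181%, below all other libraries, whereas the ITS2 shares of the CaCl2 and MnCl2 libraries overlap.

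ITS1 lies between the 18S and 5.8S genes, and cuts within it separate the precursors of the small and large subunits. Its share was 0.732%, 0.527% and 1.11% with CaCl2 and 0.459%, 0.314% and 0.374% with MnCl2, against 1.12% ± 0.0591 (SD, n = 3) in untreated libraries. The groups did not overlap, with a log2 difference of -1.0 (pooled SD 0.43) and an exact permutation p of 0.1 (adjusted 0.114). Without CaCl2 replicate 3 the difference was -0.72. Of 360 positions tested, 256 fell (71.1%, against 32.6% of all positions) and 3 rose, and the median log2 difference was -1.70. When the 10 positions next to each mature end were left out, the ITS1 share was 0.435%, 0.417% and 0.868% with CaCl2 and 0.166%, 0.150% and 0.174% with MnCl2, a log2 difference of -1.73. The largest fall was at position 2617, from 62.1, 61.3 and 20.5 CPM to 0.353, 0.484 and 0.846 CPM (log2 -4.83, limma adjusted p = 9.37e-05).

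Positions 2709 and 2710 in the middle of ITS1 went the other way. Position 2710 was the most occupied ITS1 position away from the mature ends in the untreated, CaCl2 and MnCl2 groups alike. It had 162, 168 and 132 CPM with CaCl2 and 268, 274 and 318 CPM with MnCl2, a log2 difference of 0.90 (SE 0.14, limma adjusted p = 0.00156), while untreated libraries had a mean of 512 CPM. Position 2709 rose from 61.8, 56.2 and 43.9 CPM to 118, 101 and 132 CPM (log2 1.11, limma adjusted p = 0.00193). Of the direct neighbours, position 2711 had a log2 difference of 0.02, and position 2708 had one of 0.46 that did not pass the test (limma adjusted p = 0.122) but passed with a replicate block (limma adjusted p = 0.0402). Position 2708 also passed with median-ratio scaling (limma adjusted p = 0.0321), TMM scaling (0.0195) and all 15 libraries in one fit (0.0337). Position 2713 fell (log2 -0.89), a call lost without MnCl2 replicate 2 (limma adjusted p = 0.0577) or replicate 3 (0.0719) and with TMM scaling (0.0581). Positions 2709 and 2710, C and A in the stretch printed above, held the only called rises among the 1431 spacer positions tested away from the mature ends in the unblocked fit (4 with median-ratio or TMM scaling). Several cuts of the precursor lie in ITS1, but the deposited annotation marks none there. RNA ends made by such a cut cannot be told from RNA ends in the polymerase.

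ITS2, which separates 5.8S from 25S, was the region whose shares overlapped. They were 0.718%, 0.471% and 0.870% with CaCl2 and 0.796%, 0.618% and 0.684% with MnCl2 (log2 0.06, pooled SD 0.35, exact permutation p = 0.9). The difference was 0.26 without CaCl2 replicate 3 and -0.19 without CaCl2 replicate 2. Within ITS2, positions went in opposite directions. Among the 9 positions tested of the 10 directly after 5.8S, 6 rose (66.7%, against 2.6% over all of ITS2) and 0 fell. The share of the 10 positions was 0.349%, 0.200% and 0.277% with CaCl2 and 0.670%, 0.511% and 0.562% with MnCl2. In the 212 ITS2 positions away from both mature ends, 128 fell (60.4%, near the 59.3% over all of ITS2) and 0 rose, with a median log2 difference of -1.37. Position 3158 was the most occupied of these in the untreated, CaCl2 and MnCl2 groups and fell from 238, 230 and 419 CPM to 55.7, 50.3 and 50.8 CPM (log2 -2.42, limma adjusted p = 9.37e-05). The largest fall was at position 3070, from 134, 75.4 and 52.0 CPM to 1.76, 2.42 and 3.38 CPM (log2 -4.56).

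ETS2, the 3′ external spacer, holds a stretch, positions 6663 to 6697, given in the deposited annotation as cut by Rnt1, the yeast RNase III that cuts the growing transcript, then T1 at position 6739 and the Reb1/Nsi1 site at positions 6757 to 6767. The ETS2 share was 0.540%, 0.278% and 0.728% with CaCl2 and 0.192%, 0.146% and 0.174% with MnCl2, against 0.437% ± 0.0361 (SD, n = 3) in untreated libraries. The groups did not overlap (log2 -1.50, pooled SD 0.52, exact permutation p = 0.1, adjusted 0.114), and the difference was -1.19 without CaCl2 replicate 3. Of 202 positions tested 134 fell (66.3%, against 32.6% of all positions) and 0 rose. The difference was larger further from the 25S end. The share of the positions before the Rnt1 stretch was 0.406%, 0.165% and 0.477% with CaCl2 and 0.182%, 0.137% and 0.162% with MnCl2, and these overlapped (log2 -1.0). In the Rnt1 stretch it was 0.0502%, 0.0227% and 0.101% against 0.00614%, 0.00450% and 0.00618% (log2 -3.13). Between that stretch and T1 the log2 difference was -3.23.

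Past T1, the main terminator of Pol I, the difference was larger than in any other segment described here. The 119 positions past T1 summed to 589, 674 and 1021 CPM with CaCl2, above the 289 to 344 CPM of the untreated libraries, and to 13.4, 15.2 and 16.3 CPM with MnCl2, below them. In reads these sums were 1687, 3583 and 13001 against 38, 63 and 77. The CaCl2 mean was 50.8 times the MnCl2 mean (log2 -5.63, pooled SD 0.31, and -5.40 without CaCl2 replicate 3). Of 114 positions tested past T1, 81 fell and 0 rose (71.1%, near the 66.3% that fell over all of ETS2). However, MnCl2 libraries had 3 or fewer reads each at 107 of the 114, so the fitted log2 difference of a single position there depends on the pseudocount. Position 6745, with 84.1, 79.2 and 31.6 CPM in CaCl2 libraries and 0, 0.484 and 0 CPM in MnCl2 libraries, had the largest fitted fall of ETS2 (log2 -5.73). T1 itself, position 6739, had 80.9, 90.3 and 235 CPM with CaCl2 and 17.3, 18.9 and 16.9 CPM with MnCl2 (log2 -2.70, limma adjusted p = 0.000626), against a mean of 180 CPM in untreated libraries. Directly before the Rnt1 stretch, position 6662 fell from 1299, 299 and 1983 CPM to 214, 117 and 159 CPM (log2 -2.52). Next to it, position 6661, with 582, 138 and 817 CPM against 208, 125 and 167 CPM, did not pass the test (limma adjusted p = 0.0784). Position 6661 passed with a replicate block (limma adjusted p = 0.00307), edgeR on recovered reads, all 15 libraries in one fit and without CaCl2 replicate 2. Ends of RNA cut there cannot be told from ends in the polymerase.

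**Figure D3:**
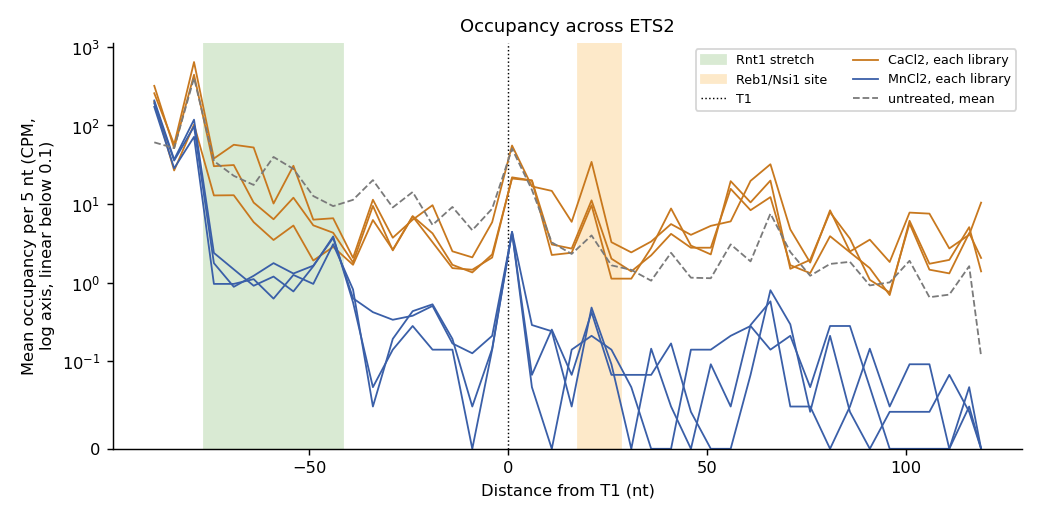
Mean occupancy per 5 nt (CPM, log axis, linear below 0.1) across ETS2 against distance from T1, with a line for each CaCl2 and MnCl2 library and the untreated mean. Shading marks the Rnt1 stretch and the Reb1/Nsi1 site. The MnCl2 libraries meet the CaCl2 libraries near the 25S end at the left and lie below them past T1, where they sum to 13.4 to 16.3 CPM against 589 to 1021 CPM.

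Occupancy rose at most of the last nucleotides of 18S that could be tested. In 5.8S and 25S only single positions near the end rose. Of the last 10 positions of 18S, 8 could be tested, and 6 rose and 1 fell. In 5.8S 2 of 8 rose, a share close to the 24.4% of the whole gene. In 25S 2 of 9 rose and 1 fell, against 12.8% that rose over all of 25S. Thus 10 of the 652 called rises lay in these ends. Of the 6 in 18S, positions 2495 and 2496 lost the call when single MnCl2 libraries were left out (limma adjusted p of at most 0.0938 and 0.0624). In 25S, the rise at position 6645 lost its call whichever MnCl2 library was left out (limma adjusted p up to 0.120). The fall at position 6640 lost its call with median-ratio (limma adjusted p = 0.0575) and TMM scaling (0.104). Position 2498 had 3544, 1169 and 2253 CPM with CaCl2 and 9246, 10826 and 15020 CPM with MnCl2 (log2 2.44, SE 0.54, limma adjusted p = 0.00691). Position 2497 rose from 1274, 464 and 1039 CPM to 3862, 4462 and 6921 CPM, a log2 difference of 2.53 and the largest rise in 18S. The MnCl2 libraries also exceeded the untreated means there, which were 4666 and 719 CPM. Together the last 10 positions of 18S held 0.928%, 0.358% and 0.691% of occupancy with CaCl2 and 2.03%, 2.14% and 3.03% with MnCl2. In 5.8S, position 3016 rose from 359, 252 and 395 CPM to 963, 936 and 1229 CPM, the largest rise of that gene (log2 1.65, limma adjusted p = 0.000412). In 25S, position 6644 rose from 427, 271 and 422 CPM to 938, 903 and 1338 CPM (log2 1.51). Position 6646, the most occupied position of the gene in both groups, went from 7941, 3910 and 6391 CPM to 15301, 13121 and 15115 CPM without overlap but did not pass the test (log2 1.31, SE 0.70, limma adjusted p = 0.158), although it passed with edgeR on recovered reads (adjusted p = 0.00742). CaCl2 replicate 2 was the lowest library at positions 2497, 2498, 3016, 6644 and 6646.

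The spacer side of the ends differed from end to end. After 5.8S, positions 3021 to 3026 all rose, the most at position 3025 (log2 1.54). Position 3021 did not pass without MnCl2 replicate 1 (limma adjusted p = 0.0579), and position 3027 (log2 0.53, limma adjusted p = 0.0931) passed with a replicate block (limma adjusted p = 0.0255). Position 3027 also passed with median-ratio and TMM scaling, with all 15 libraries in one fit and without CaCl2 replicate 1. After 18S, position 2502 rose from 369, 128 and 272 CPM to 1045, 470 and 616 CPM (log2 1.52, limma adjusted p = 0.0126), against a mean of 22.8 CPM in untreated libraries. Without MnCl2 replicate 1 it no longer passed (log2 1.2, limma adjusted p = 0.0695). The following positions 2503 to 2509 did not pass the test and position 2510 fell (log2 -1.14), a call lost without MnCl2 replicate 2 (limma adjusted p = 0.0741) or replicate 3 (0.0808). After 25S, position 6650 fell from 1125, 736 and 882 CPM to 653, 546 and 596 CPM (log2 -0.59), a call that was lost with median-ratio and TMM scaling and when any library other than CaCl2 replicate 2 was left out (limma adjusted p up to 0.135), and 0 of 8 tested positions rose. Position 6657 (log2 -0.95, limma adjusted p = 0.0851) passed with a replicate block (limma adjusted p = 0.0243), with all 15 libraries in one fit and without CaCl2 replicate 2. Of the 26 tested positions after the 3 ends, 7 rose (26.9%, against 9.54% of all positions) and 2 fell (7.69%, against 32.6%). Their median log2 difference was -0.08.

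**Figure D4:**
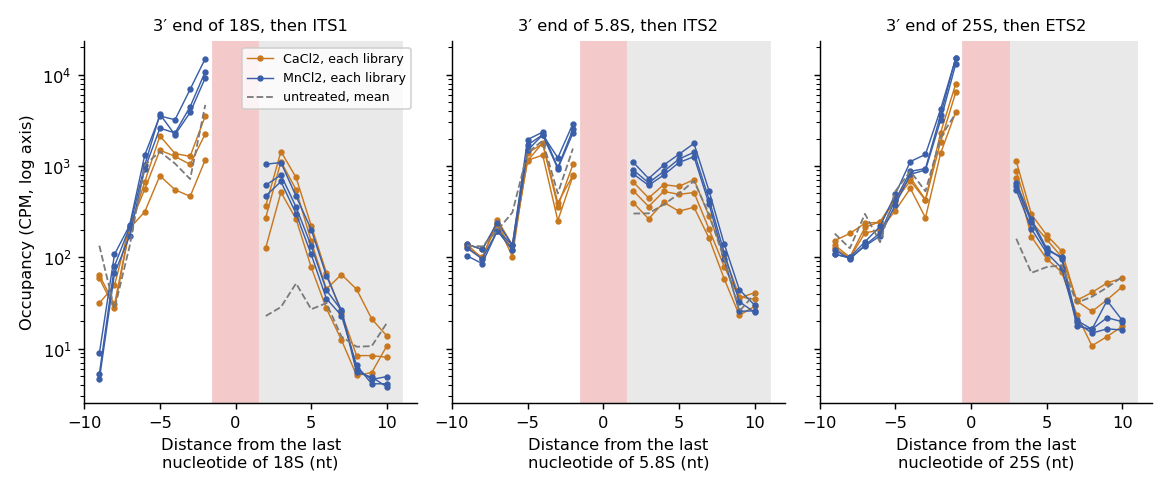
Occupancy (CPM, log axis) from 9 nt before to 10 nt after the last nucleotide of 18S, 5.8S and 25S, with a line for each CaCl2 and MnCl2 library and the untreated mean. The grey band is spacer and the red band marks positions at 0 in all 15 libraries. The MnCl2 lines lie above the CaCl2 lines at some of the last positions of each rRNA and in the first positions of ITS2. At other last positions they overlap with the CaCl2 lines or lie below them. The groups overlap in most of ITS1 and ETS2 shown.

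Mature 5′ ends differed from rRNA to rRNA. Of the 10 positions before the 5′ end of 5.8S, 8 fell and 0 rose (80.0%, near the 71.1% that fell over all of ITS1). Before 25S 9 fell and 0 rose (90.0%, against 59.3% that fell over all of ITS2), but only 3 fell with median-ratio or TMM scaling. The 10 positions before 18S, at the 3′ end of ETS1, had 2 falls among 10, with a median log2 difference of -0.51 against -2.57 for ETS1 positions away from the end. The first 20 positions of 18S had 14 falls (70.0%, against 26.3% over all of 18S) and 0 rises. With median-ratio or TMM scaling 11 fell, and with TMM scaling 1 rose. Their median log2 difference was -2.0, against -0.20 over all of 18S. Their summed share differed less, and the groups overlapped (log2 -0.68, exact permutation p = 0.2). It was 0.124%, 0.0741% and 0.150% with CaCl2 and 0.0832%, 0.0625% and 0.0646% with MnCl2. Position 707, the largest fall in 18S, went from 53.7, 38.4 and 109 CPM to 2.47, 0.967 and 2.12 CPM (log2 -4.48, limma adjusted p = 9.37e-05). The first 20 positions of 25S had 2 rises and 2 falls and those of 5.8S 3 rises and 6 falls. The share of the latter was nevertheless higher with MnCl2, at 0.247%, 0.249% and 0.290% with CaCl2 and 0.380%, 0.311% and 0.328% with MnCl2, without overlap (log2 0.37).

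Within the rRNA genes the largest difference was a rise at a single nucleotide. Position 6411, nucleotide 3160 of 25S, had 191, 94.4 and 144 CPM with CaCl2 and 4403, 8140 and 5996 CPM with MnCl2, and the untreated mean was 117 CPM. All MnCl2 libraries lay far above all others, with a log2 difference of 5.43 (SE 0.30, limma adjusted p = 1.51e-05), and this U was the third most occupied position of the gene in MnCl2 libraries by group mean. Its direct neighbours, positions 6410 and 6412, had log2 differences of 0.55 and 0.23, of which the first passed the test. That call was lost whichever MnCl2 library was left out (limma adjusted p up to 0.0689), and position 6412 passed with median-ratio (0.0337) and TMM scaling (0.0164). Position 6409 rose by less, from 186, 123 and 154 CPM to 569, 447 and 484 CPM (log2 1.70). Other rises in 25S were at position 4696 (log2 1.84), position 4967 (log2 1.74) and position 5096 (log2 1.73). The largest fall in 25S, at position 4655, went from 45.4, 51.9 and 67.8 CPM to 9.87, 7.50 and 10.8 CPM (log2 -2.43). In 18S, adjacent positions 1899 and 1900 had log2 differences of -4.07 and -3.43, and position 1904 rose by 1.54. The largest fall in 5.8S was at position 2871, from 62.5, 84.1 and 98.1 CPM to 19.7, 15.5 and 16.1 CPM (log2 -2.17), although the untreated mean was 24.6 CPM. Apart from the largest rise and fall of each gene, these positions were chosen after their values were seen.

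**Figure D5:**
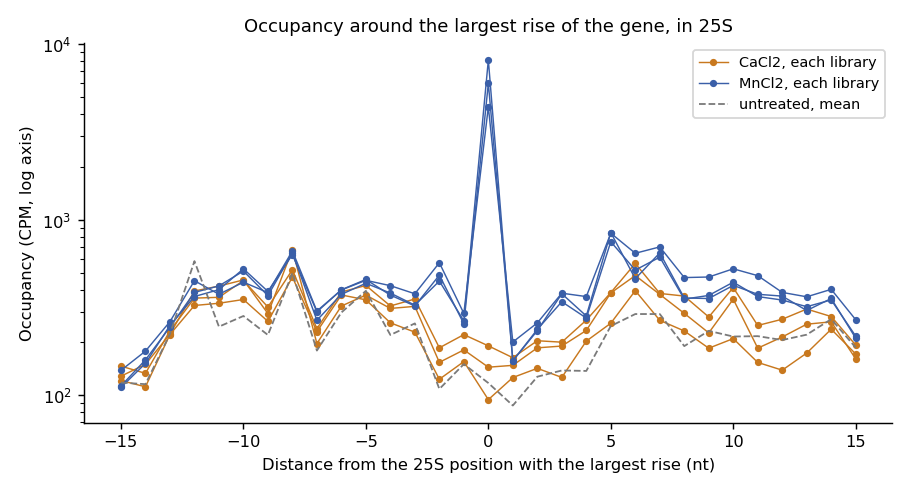
Occupancy (CPM, log axis) from 15 nt before to 15 nt after the 25S position with the largest rise, with a line for each CaCl2 and MnCl2 library and the untreated mean. At distance 0 the MnCl2 libraries reach 4403 to 8140 CPM and the CaCl2 libraries 94.4 to 191 CPM, and 2 nt before it they lie at 447 to 569 CPM and 123 to 186 CPM.

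Over the whole rRNA genes the differences were small, and in 18S and 25S the sign of the median rested on the scaling. The 18S share was 33.6%, 33.5% and 34.3% with CaCl2 and 33.1%, 32.0% and 32.5% with MnCl2 (log2 -0.06, pooled SD 0.02). The 25S share was 59.4%, 60.1% and 56.8% with CaCl2 and 61.2%, 63.2% and 62.3% with MnCl2 (log2 0.08), and the 5.8S share 3.33%, 3.45% and 3.29% against 4.09%, 3.60% and 3.79% (log2 0.19). None of the 3 overlapped between groups, and each had an exact permutation p of 0.1, adjusted 0.114. Shares sum to a fixed total, so the loss in the spacers raises the sum of the rRNA genes. In 18S 172 of 1798 positions rose and 473 fell, with a median log2 difference of -0.20 that became 0.04 with median-ratio and 0.12 with TMM scaling. In 25S 433 of 3395 rose and 585 fell, and the median of -0.06 became 0.17 and 0.25. In 5.8S 38 of 156 rose and 37 fell, and the median was 0.02, 0.26 and 0.34 in the same order. Under each of these scalings the median was therefore lower in 18S than in 25S. Of 18 windows within 18S 2 rose and 6 fell (2 and 4 with median-ratio scaling), and of 33 within 25S 6 rose and 3 fell (12 and 2). The 2 windows of 18S that rose were its last, at positions 2301 to 2400 (log2 0.51) and 2401 to 2500 (log2 0.96).

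Differences in the rRNA genes were also set against the level in untreated libraries, which are in neither group. When rRNA gene positions were split into 4 equal classes by their untreated mean, a split chosen after seeing the data, the median log2 difference was -0.20 in the lowest class, up to 67.2 CPM, and -0.09, -0.08 and -0.06 in the next classes. In the lowest class 89 positions rose and 268 fell, and in the highest, above 212 CPM, 170 rose and 289 fell. Falls thus made up 20.1% of the lowest class and 21.6% of the highest, and rises 6.67% and 12.7%. The excess of falls depended on the scaling. With median-ratio scaling 194 positions rose and 138 fell in the lowest class, and 367 rose and 123 fell in the highest. The medians of these classes became 0.04 and 0.18. With TMM scaling 250 rose and 117 fell in the lowest class, and 449 rose and 101 fell in the highest. Depth and the pseudocount bear on the lowest class more than on the others, and their part was not tested.

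Occupancy in the spacers was held by fewer positions with MnCl2. The 2.5% most occupied spacer positions of each library (38 positions) held 42.4%, 35.4% and 31.3% of spacer occupancy with CaCl2 and 77.4%, 73.6% and 72.3% with MnCl2, against 26.7% ± 0.67 (SD, n = 3) in untreated libraries. The means differed by 38.0 percentage points (pooled SD 4.4, exact permutation p = 0.1, the smallest possible). Without the positions next to the mature ends the values were 33.0%, 30.5% and 27.6% with CaCl2 and 36.8%, 35% and 35.8% with MnCl2, a difference of 5.49 percentage points. At the top 5% of these positions the groups overlapped, with 43.8%, 40.9% and 37.8% against 44.8%, 43.2% and 43.9% (difference 3.13 percentage points, exact permutation p = 0.2). Spacer positions at 0 numbered 22, 17 and 7 in the CaCl2 libraries and 211, 153 and 128 in the MnCl2 libraries (exact permutation p = 0.1). The MnCl2 libraries had 44857 to 66782 spacer reads and the CaCl2 libraries 106350 to 715110, and the part of read number in the count of positions at 0 was not tested.

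Bases at the most occupied spacer positions also differed. Away from the mature ends, G was the last incorporated base at 33.3%, 36.1% and 38.9% of the top 36 positions with CaCl2 and at 11.1%, 11.1% and 13.9% with MnCl2, against 31.5% ± 1.6 (SD, n = 3) in untreated libraries and 23.6% of all such positions. The groups did not overlap (difference -24.1 percentage points, exact permutation p = 0.1, adjusted over the 4 bases 0.400). The shares of A, C and U overlapped between the groups. A was at 36.1% and 38.9% in CaCl2 replicates 1 and 2 but at 8.33% in replicate 3. Over single positions, G in ETS1 had a median log2 difference of -2.84, below C (-2.68), U (-2.50) and A (-2.37). Of 174 tested G positions of ETS1, 161 fell (92.5%), near the 87.6% of all ETS1 positions (C 90.5%, A 86.1% and U 83.3%). Neighbouring bases gave like values, since ETS1 positions away from the end had a median of -2.91 where the base before was G and -2.83 where the base after was G, against -2.86 where the last base was G. In the rRNA genes the median of G was also the lowest, at -0.20 against -0.14 for C, -0.06 for U and -0.04 for A. G positions of the spacers were more occupied than others in CaCl2 libraries, with a median of 14.3 CPM against 9.83 for A, 10.5 for C and 11.4 for U, and had about the same level with MnCl2, 1.6 CPM against 1.74, 1.46 and 1.57.

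To view pattern apart from level, each library was rescaled to the sum of its spacer positions away from the mature ends. The pseudocount stayed at 1 although 1 read was then worth more, so positions with few or no reads can show large falls. Of 1431 positions 318 (22.2%) were then called, 159 higher and 159 lower, and the spacers went in different directions. ITS2 had 79 rises and 2 falls with a median log2 difference of 1.13, ITS1 had 55 rises and 11 falls (0.47), ETS1 had 15 rises and 86 falls (-0.73) and ETS2 had 10 rises and 60 falls (-3.74). The ETS2 median rests on low values, since 139 of its 194 tested positions had 3 or fewer reads in each MnCl2 library. So did 105 of 684 in ETS1, 27 of 341 in ITS1 and 4 of 212 in ITS2. The part of read number in the falls was not tested. As a share of this sum, ETS2 held 12.4%, 6.62% and 11.6% with CaCl2 and 14.3%, 10.7% and 11.4% with MnCl2, and the groups overlapped (log2 0.29). The same measure had log2 differences of -1.03 for ETS1, 1.05 for ITS1 and 1.04 for ITS2, without overlap. Past T1 there were 0 rises and 49 falls among 114 positions tested, of which 107 had 3 or fewer reads in each MnCl2 library. Without this rescaling, shares away from the ends had log2 differences of -3.81 for ETS1, -1.73 for ITS1, -1.74 for ITS2 and -2.49 for ETS2. As a description across positions, which are not independent replicates, Spearman's rho between the group means was 0.67 for ETS1, 0.55 for ITS1, 0.51 for ITS2 and 0.65 for ETS2. Between single libraries of different groups it ran from 0.44 to 0.66 in ETS1, and between libraries of the same group it was 0.69 or more there. In ITS2 and ETS2 these ranges overlapped, with up to 0.60 and 0.61 between the groups and down to 0.58 and 0.53 within a group.

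The same pair of cations was used in a separate set of libraries, MnCl2 + DNase I and CaCl2 + MNase, which shared no library with those above but added a different nuclease on each side. In that set 4773 of 6835 positions (69.8%) were called by limma, 1158 higher and 3615 lower with MnCl2 + DNase I. Of the 2881 positions called for MnCl2 against CaCl2 and tested in both sets, 2859 (99.2%) had the same sign and 2693 (93.5%, or 56.4% of the calls in the nuclease set) were called in the same direction. Over all 6828 positions tested in both, the sign was the same at 86.2%. Shares of ETS1, ITS1, ITS2 and ETS2 had log2 differences of -4.26, -1.84, -0.61 and -2.43, against -3.78, -1.0, 0.06 and -1.50 without nuclease. Position 6411 rose by 4.62 on the log2 scale, position 2710 by 0.89 and position 2497 by 2.17, and position 336 fell by 5.94. Of the 26 positions tested after the 3 ends, 7 rose and 16 fell, with a median log2 difference of -0.70. Falls also outnumbered rises over all positions of that set, with a median log2 difference of -0.34. After 5.8S, position 3025 had a log2 difference of 1.03. After 18S, position 2502 had 0.38, and position 2503, which had -0.16 without nuclease, had -1.20. The log2 difference past T1 was -6.55.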

How the data were processed

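The 35S positions of 6 NET-seq libraries (3 MnCl2, 3 CaCl2) were analysed, with 9 more libraries beside them. The submitters' processing notes name bcl2fastq 2.20.00, cutadapt 3.4, STAR 2.7.1a, SAMtools 1.6, bedtools 2.28.0, R 4.0.2 and the R64 build. Per the study's methods, reads were deduplicated by unique molecular identifier, trimmed, aligned and counted by 3′ end. The authors deposited CPM, reads divided by the library's total on the 35S gene, and the total was found to stop at T1. Columns of the authors' own ratios and p-values were not used. Values of a library were the same in each of the 4 tables read, and 3 tables were not used here. Within a tolerance of 0.1 of a read, 99.78% to 99.985% of values were whole reads, so reads were recovered for depth and for an edgeR alternative, although the step is less certain for CaCl2 replicate 3. UMI-deduplicated reads are counted molecules, and read numbers cover counting error only. A group was at the floor where each library had 3 or fewer reads.

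Positions above 0 in at least 3 of the 6 libraries, and sums over windows of 100 positions, were compared with limma 3.58.1 (R 4.3.3, eBayes with trend) on log2(CPM + 1) with Benjamini-Hochberg adjustment. Shares of regions and bases were compared with two-sided exact permutation tests, whose smallest p is 0.1 for 3 against 3 libraries. Replicate numbers in the titles may pair libraries. Deviations from the group means correlated at 0.149, 0.214 and 0.115 for equal numbers and at -0.164 to 0.0318 for unequal ones, and a fit with the replicate block is an alternative. Other alternatives were pseudocounts of 0.5 and 5, filters, median-ratio and TMM scaling, edgeR 4.0.16, all 15 libraries in one fit, windows of 50 positions, rescaled spacers and each library left out. On simulated data for this comparison, 136 of 200 positions changed by 1 on the log2 scale and 200 of 200 changed by 2 were recovered, and 0 were called with no change. Counting unchanged positions, 144 and 208 were called in the runs with changes of 1 and 2. Only positions with a mean of at least 10 CPM were changed, as many upward as downward. All simulated libraries had the same spread, a fixed setting that was not estimated from these data. The simulation therefore does not cover positions at the floor, a library that stands apart, or differences as many and as one-sided as those here. Its rates need not hold for the libraries compared. Named positions are the largest rise and fall of each region without overlap, the 5 largest rises and falls of the spacers, and the positions after each mature 3′ end. Those added after their values were seen are named as such or are the most occupied of a spacer, next to a marked feature, or beside a named position. Members, lists and tests were chosen with earlier results of these data known. Sequences were read from R64, whose base matched the deposited base at all 6858 positions. Python 3.11.15, NumPy 2.4.6, pandas 2.3.3, SciPy 1.17.1 and Matplotlib 3.10.9 were used.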

Additional observations from a re-analysis of the deposited data

How the results depend on the processing

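Counts of called positions were 2670 to 3079 with pseudocounts of 0.5 or 5, no filter, median-ratio or TMM scaling, edgeR on recovered reads (2960) or a replicate block (3079), 2075 with a mean of at least 10 CPM, 3870 with all 15 libraries in one fit and 1846 to 3400 with a library left out. Rescaling to the spacer sum gave 651 of 1487 spacer positions and 318 of 1431 without the positions next to the ends, and rescaling the rRNA genes to their own sum, chosen after seeing the data, 1704 of 5349, with fewer positions tested. Windows of 50 positions gave 64 called, rescaled spacers 16 and, without the ends, 14 of 17 windows, and leaving out a library 23 to 43. As a share of the spacer sum, which positions next to the ends dominate with MnCl2, the log2 difference was -2.28 in ETS1, 0.50 in ITS1 (reversed), 1.56 in ITS2 and 0.0036 in ETS2 (reversed). With the positions next to the ends taken out of region and total it was -1.72, -1.74 and -2.48 in ITS1, ITS2 and ETS2 and -2.77 over the spacers. For bases, C without the ends differed by 6.48 and G at the top 5% by -17.3 percentage points, and the concentration differed by 31.7 at the top 5% and 5.49 without the ends. With a library left out, log2 differences ran from -3.93 to -3.52 in ETS1, -1.25 to -0.72 in ITS1, -0.19 to 0.26 in ITS2 and -1.89 to -1.19 in ETS2. Of 53 called positions described, 41 kept the call in every alternative tried and 12 lost it in at least one, and 8 uncalled positions gained one. Over 63 positions, 882 of 944 alternatives kept direction and call, 31 lost and 23 gained a call, and 8 reversed, all at uncalled positions. With median-ratio and TMM scaling these were 0.178 and 0.252 at position 2493 and 0.0756 and 0.150 at position 2503, and with a library left out values ran from -0.137 to 0.0562 at position 2493, -0.598 to 0.143 at position 2503 and -0.0701 to 0.0928 at position 2711. The replicate block added calls at positions 2708, 3027, 6657 and 6661 and changed no other call of these positions. Depth limits the MnCl2 spacers, where 275 tested positions were at the floor. The cause of these differences was not tested.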
